A study of Homo sapiens with 8 samples.

Results

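The nuclear genes for the subunits of the oxidative phosphorylation chain were followed in SW620, an established human colorectal cancer cell line. Members were chosen by their current symbols, which begin with NDUFA, NDUFB, NDUFC, NDUFS, NDUFV, UQCR, COX4, COX5, COX6, COX7, COX8 or ATP5, or are SDHA to SDHD. The arrays named 83 such genes on 104 of 24526 probes. Of these, 75 genes on 94 probes were detected (p-value under 0.05) on 2 or more arrays out of 8 and were tested among 10856 genes. The tested members were 31 genes of complex I, 3 of complex II, 7 of complex III, 10 of complex IV, 15 of complex V and 9 accessory genes that the symbols take in. The accessory genes are 7 complex I assembly factors, the ATP synthase inhibitor ATP5IF1 and the pseudogene ATP5F1EP2, and they are kept apart from the subunits below. All tested members except NDUFS6 were detected on all 8 arrays.

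Oxidative phosphorylation takes place in the inner mitochondrial membrane. Complex I takes electrons from NADH and complex II takes them from succinate, and both pass them through ubiquinone to complex III. Cytochrome c carries them on to complex IV, which reduces oxygen. Protons pumped on the way return through complex V, the ATP synthase. Most subunits are encoded in the nucleus and a few in mitochondrial DNA, and only nuclear genes are described here.

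Each of the 4 groups had 2 single-colour Illumina bead arrays of SW620 cells harvested at 24 h. One group was left untreated, and one received Y15 at 4 uM, an inhibitor of the focal adhesion kinase FAK. Another was transfected with an siRNA against HAS3, a synthase of the matrix polysaccharide hyaluronan, and the last with a scrambled sequence as its control. The design compares Y15 with untreated cells and HAS3 siRNA with the scrambled sequence. Untreated cells were not transfected, no group given a vehicle alone is among the labels, and all groups share 1 cell line. The labels do not say whether the 2 arrays of a group come from separate cultures. The p-values therefore set the differences between groups against the spread of arrays within groups, and that spread may be only technical.

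Mean probe intensity was 352.1 to 524.7 per array, except 234.1 on the second Y15 array, and with 2 arrays per group the precision of all values is limited by their number. HAS3, the gene targeted by the siRNA, read 10.05 and 9.73 log2 units on the siRNA arrays against 10.49 and 10.16 on the scrambled arrays, a difference of -0.43 that did not pass (limma adjusted p = 0.151). It read 9.32 and 9.50 untreated and 9.45 and 9.22 with Y15, so both siRNA arrays lay above both untreated arrays, and scrambled cells were higher than untreated cells by 0.91 (limma adjusted p = 0.00329). A lower HAS3 level on the siRNA arrays is therefore not established by these values. PTK2, the FAK gene, differed by -0.11 with Y15 and -0.12 with HAS3 siRNA, and neither passed. Of 10 colon epithelial markers, 8 were detected on every array, and KRT20 was detected on none. Among markers of other cells, COL1A2, COL3A1, THY1, PTPRC, CD3E, CSF1R, CDH5, KDR, TEK and all 5 muscle genes were detected on no array. Of 5 endothelial markers 1 was detected on every array, and no fibroblast, leukocyte or muscle marker was. The summed intensity of the epithelial markers was 17750 to 21510 in untreated cells, 17030 to 18690 with Y15, 18690 to 18970 with HAS3 siRNA and 18530 to 19820 in scrambled cells, and 4 of the 9 tested fell with Y15. With HAS3 siRNA 2 of the 9 fell, CDH1 by 1.80 and CDX2 by 1.07 on the log2 scale (limma adjusted p = 1.35e-05 and 0.00133). The 3 tested fibroblast markers, COL1A1, LUM and PDGFRB, summed to 88.9 to 98.9 untreated, 82.5 to 89.0 with Y15, 93.8 to 94.8 with HAS3 siRNA and 107.1 to 115.7 in scrambled cells. None passed with Y15 in limma, where 0 had an unadjusted p under 0.05, LUM fell with HAS3 siRNA (-0.57, limma adjusted p = 0.0289), and against untreated cells scrambled cells were higher in LUM (0.89) and lower in PDGFRB (-0.44). Of the 2 tested leukocyte and 2 tested endothelial markers, 1 each rose with Y15; their sums were 65.3 to 68.2 and 82.0 to 82.7 in untreated cells, 83.7 to 87.1 and 91.0 to 123.5 with Y15, 53.0 to 56.9 and 60.7 to 66.6 with HAS3 siRNA, and 58.6 to 60.4 and 76.9 to 77.7 in scrambled cells. The part of these markers in the results was not tested.

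Promoter sequence is shown first for 5 members whose transcripts are described below, because nuclear factors such as NRF1, GABP of the ETS family and YY1 are known to act at many of these genes. The sequences are from RefSeq (GRCh38.p14), from 190 bases before the annotated start to 10 bases from it, 5′ to 3′ on the strand of the gene. Capitals mark TGCGCA, the core of the NRF1 site, and the ETS core CCGGAAG, each searched on both strands with the YY1 core AAGATGG. SDHA, NDUFA8 and COX5B are members that fell with Y15 and hold several matches each. They do not stand for all that fell: of 18 such members with a promoter entry, 9 held a motif. NDUFS8 had the largest fall of all members and COX7B rose. All matches found in these 5 windows are as follows.
SDHA, chr5:218130-218329, plus strand: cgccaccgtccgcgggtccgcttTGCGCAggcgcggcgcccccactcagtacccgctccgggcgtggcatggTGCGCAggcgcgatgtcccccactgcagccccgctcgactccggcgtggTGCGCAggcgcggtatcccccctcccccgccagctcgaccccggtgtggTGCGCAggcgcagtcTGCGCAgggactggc
NDUFA8, chr9:122159770-122159969, minus strand: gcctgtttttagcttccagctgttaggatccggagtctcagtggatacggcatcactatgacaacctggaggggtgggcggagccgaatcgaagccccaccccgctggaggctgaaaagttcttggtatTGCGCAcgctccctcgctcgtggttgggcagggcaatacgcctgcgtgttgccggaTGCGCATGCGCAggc
COX5B, chr2:97645872-97646071, plus strand: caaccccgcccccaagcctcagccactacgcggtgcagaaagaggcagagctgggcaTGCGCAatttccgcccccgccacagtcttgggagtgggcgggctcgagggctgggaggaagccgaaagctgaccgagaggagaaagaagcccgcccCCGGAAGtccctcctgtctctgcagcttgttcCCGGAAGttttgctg
NDUFS8, chr11:68030491-68030690, plus strand: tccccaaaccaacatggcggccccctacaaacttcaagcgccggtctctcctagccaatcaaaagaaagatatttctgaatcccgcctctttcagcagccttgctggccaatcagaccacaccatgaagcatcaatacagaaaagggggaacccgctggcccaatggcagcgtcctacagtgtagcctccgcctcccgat
COX7B, chrX:77899278-77899477, plus strand: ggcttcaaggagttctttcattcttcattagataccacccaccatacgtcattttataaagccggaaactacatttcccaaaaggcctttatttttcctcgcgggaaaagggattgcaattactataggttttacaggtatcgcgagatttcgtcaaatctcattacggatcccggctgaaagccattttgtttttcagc
SDHA holds 5 copies of the NRF1 core. The first 4 of them begin 167, 118, 69 and 20 bases before the start, 49 bases apart, and the fifth begins 5 bases before it. NDUFA8 holds 3 copies, of which 2 lie end to end across the start. Copies of the core are matches of its letters and not a count of whole NRF1 sites. COX5B holds 1 NRF1 core, 133 bases before the start, and 2 ETS cores, 37 and 5 bases before it. In NDUFS8 and COX7B none of the 3 motifs was found in this window, which says nothing about the factors.

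Over 300-base windows (250 before to 50 after the start), 37 of the 64 tested members with a promoter entry held at least 1 of the 3 motifs, or 57.8%. The share was 34.4% over 8959 promoters of all tested genes and 22.2% over all 27305 promoters in the table. The NRF1 core was found in 28.1% of these members against 13.6% of tested genes, the ETS core in 31.2% against 19.1%, and the YY1 core in 21.9% against 7.5%. By direction with Y15, 9 of 18 members that fell, 3 of 6 that rose and 25 of 40 that were not called held a motif. The ETS core was in 2 of the 18 that fell and in 16 of the 40 not called. These shares are descriptions, and no test of them was made. Promoters also differed in base composition: the median GC content was 61.0% in the tested members and 65.0% over tested genes.

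With Y15 the members that fell, by up to 2.21-fold, came from all 5 complexes. They were 9 genes of complex I, 1 each of complexes II, III and IV, 5 of complex V and 2 accessory genes. The few that rose were small subunits of complex IV, 2 subunits of the ATP synthase and 2 complex I assembly factors. Of the 75 members, 19 fell and 6 rose (limma, Benjamini-Hochberg adjusted p under 0.05 over 10856 genes). The background was large: 41.8% of all tested genes passed, 18.8% higher and 23.0% lower. The members' 33.3% called is below that share, and their 25.3% lower is close to the 23.0%. With no detection filter the order was reversed, at 28.9% of 83 members beside 25.4% of 16922 genes. Their split was 6 higher against 19 lower, whereas all genes split 2040 against 2498. The median difference of the members was -0.16 log2 units, beside -0.03 for all tested genes. Changes of 2-fold or more were seen in 3 members (4%) and in 9.78% of all genes. Both Y15 arrays lay below both untreated arrays for 38 members and above them for 16, where 36.7% and 31.1% of all genes did so. Intensities are relative to each array's own distribution, and fewer cells and less RNA per cell cannot be told apart.

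In complex I 9 of 31 genes fell and none rose, with a median of -0.19. With no background correction and with the series matrix values 10 fell and 2 rose, and with offset 50 10 fell and 1 rose. In complex II 1 of 3 fell, with a median of -0.24. In complex III 1 of 7 fell and the median was 0.03, and in complex IV 1 of 10 fell, 2 rose and the median was 0.01. In complex V 5 of 15 fell and 2 rose, with a median of -0.19. By array, the complex I genes had median differences from the untreated mean of -0.21 and -0.16 on the Y15 arrays, 0.07 and 0.04 with HAS3 siRNA, and -0.02 and -0.01 on the scrambled arrays. The complex V genes read -0.20 and -0.26, -0.01 and 0.01, and 0.05 and 0.04 in the same order. Under median centring of the arrays in place of quantile normalization the median of all genes with Y15 was -0.31. On that scale the medians of complexes III and IV were also below 0, at -0.29 and -0.22. Relative to all genes, complexes I, II and V differed by -0.20, -0.45 and -0.09 there, and complexes III and IV by 0.02 and 0.09, the same signs as under quantile normalization.

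**Figure D1:**
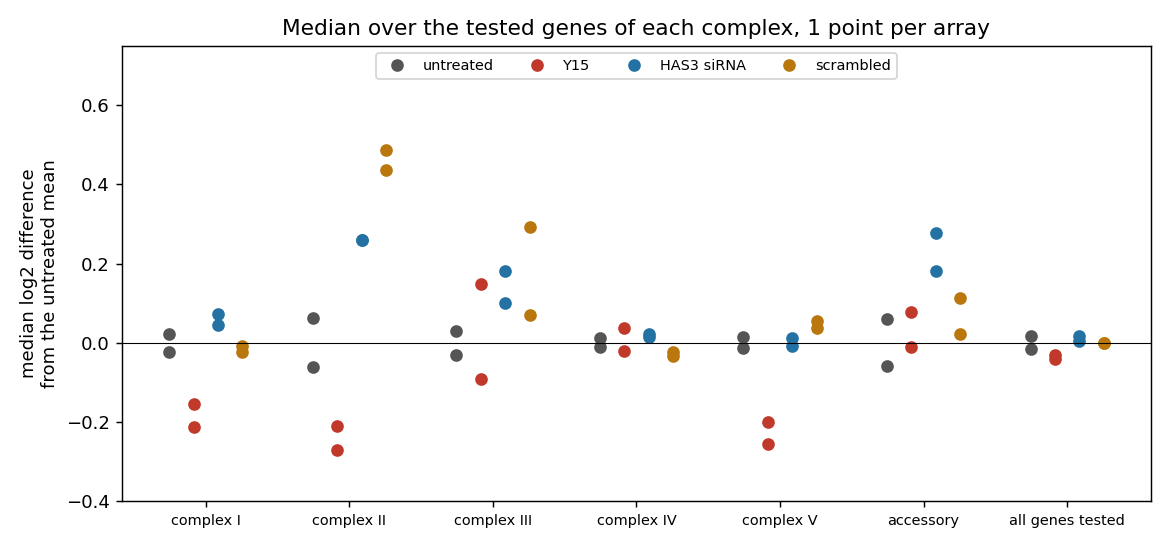
For each complex, the accessory genes and all tested genes, each point is 1 array and gives the median over genes of the log2 difference from the untreated mean; colours mark the 4 groups of 2 arrays. On the Y15 arrays the medians of complexes I, II and V lie between -0.16 and -0.27, while those of complex IV stay within 0.04 of 0.

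**Figure D2:**
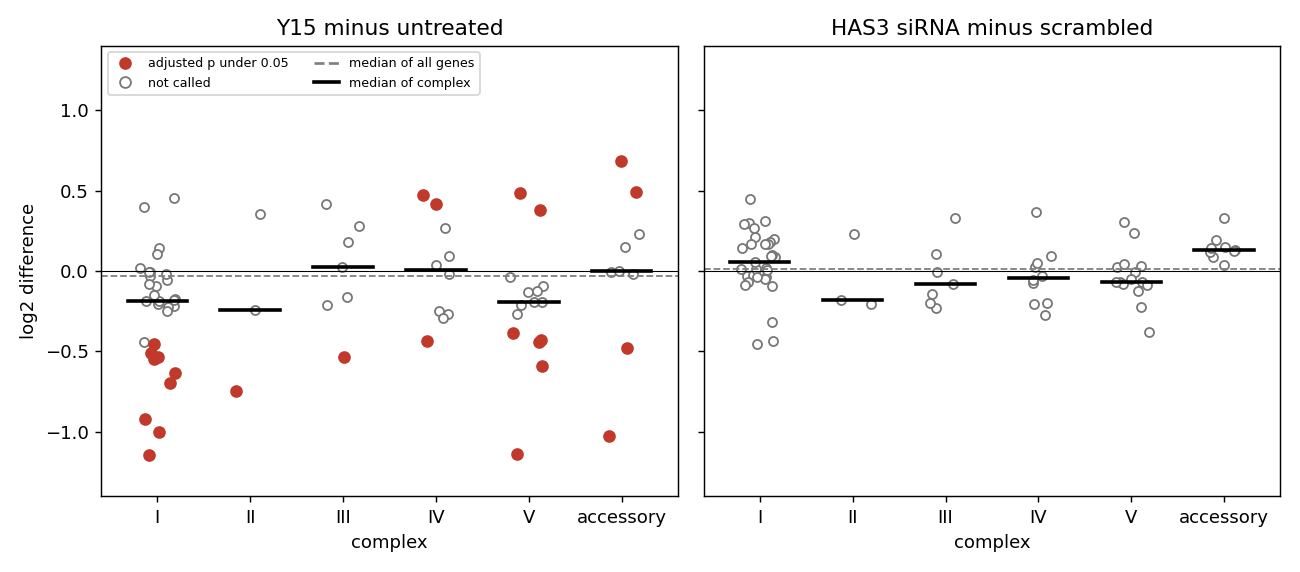
Each point is 1 tested member, placed by its log2 difference in Y15 minus untreated (left) and HAS3 siRNA minus scrambled (right); filled points passed at an adjusted p under 0.05, bars are medians per complex and the dashed line is the median of all genes. With Y15 25 points are filled, 19 below 0 and 6 above, and with HAS3 siRNA none is.

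Complex I was examined by its parts. Its NADH module binds and oxidises NADH, its Q module passes electrons by iron-sulphur clusters to ubiquinone, and its membrane arm pumps protons. Of the 6 tested genes of the catalytic core 4 fell with Y15 (median -0.78), and of the 25 supernumerary genes, which surround the core, 5 did (median -0.18). By module, with NDUFA7 counted here in the Q module, 3 of 5 Q module genes, 3 of 7 NADH module genes and 3 of 18 membrane arm genes fell. Of all genes 23.0% fell, and the shares of the supernumerary genes and of the membrane arm lay below that.

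NDUFS8 encodes an iron-sulphur subunit of the Q module. Its log2 intensity was 12.05 and 12.25 in untreated cells, 10.86 and 11.14 with Y15, 11.48 and 11.77 with HAS3 siRNA and 11.98 and 12.13 in scrambled cells. The Y15 arrays were the lowest of the 8. Its level was 2.21-fold lower with Y15, a log2 difference of -1.15 ± 0.16 (SE, n = 2 arrays per group, limma adjusted p = 0.000163).

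NDUFS7, which carries the last iron-sulphur cluster before ubiquinone, read 11.11 and 10.93 untreated, 10.20 and 9.84 with Y15, 10.52 and 10.56 with HAS3 siRNA and 10.41 and 10.74 scrambled. Again both Y15 arrays were below all others. The difference with Y15 was -0.998 ± 0.165 (SE, limma adjusted p = 0.000546). NDUFA7, a supernumerary gene of the same module, read 9.36 and 8.89 untreated and 8.54 and 8.31 with Y15, and fell by 0.70 ± 0.18 (SE, limma adjusted p = 0.00979, and 0.104 without the first untreated array). The other Q module genes did not pass: NDUFS3, a core subunit, differed by 0.11 and NDUFA9, a supernumerary subunit, by 0.14, with 95% intervals of -0.20 to 0.41 and -0.15 to 0.44.

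NDUFV1 encodes the flavoprotein that takes up the electrons of NADH. It read 12.11 and 11.76 untreated, 11.05 and 10.98 with Y15, 11.51 and 11.48 with HAS3 siRNA and 11.16 and 11.50 scrambled. The scrambled arrays thus lay between the untreated and the Y15 arrays. With Y15 the difference was -0.92 ± 0.16 (SE, limma adjusted p = 0.000846), a 1.89-fold lower level. NDUFV2, its iron-sulphur partner, read 11.98 and 11.71 untreated against 11.20 and 11.21 with Y15, and it fell by 0.64 ± 0.14 (SE, limma adjusted p = 0.00343). NDUFV3, a small subunit beside them, read 7.51 and 7.28 against 6.81 and 6.92 and fell by 0.53 ± 0.14 (SE, limma adjusted p = 0.00829, and 0.0691 without the first untreated array). NDUFS1, the largest subunit of this module, gave -0.08 with an interval of -0.43 to 0.27 and was not called.

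In the membrane arm NDUFA8, a subunit on the intermembrane-space side, read 11.66 and 11.49 untreated and 10.96 and 11.10 with Y15. Its fall was 0.55 ± 0.14 on the log2 scale (SE, limma adjusted p = 0.00717, and 0.0546 without the first untreated array). NDUFB11 and NDUFA3, supernumerary subunits named here after their values were seen, gave -0.51 (limma adjusted p = 0.0194) and -0.45 (0.0155). NDUFB11 lost its call without the first untreated or the first Y15 array (0.152 and 0.104), and NDUFA3 without the second untreated or the first Y15 array (0.0646 and 0.074). The smallest difference in complex I was that of NDUFC1, at -0.003 with an interval of -0.35 to 0.34. No complex I gene passed as higher in the quantile-normalized, background-corrected values, where the highest were 0.45 for NDUFA12 (limma adjusted p = 0.0568) and 0.40 for NDUFB6 (0.0702).

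**Figure D3:**
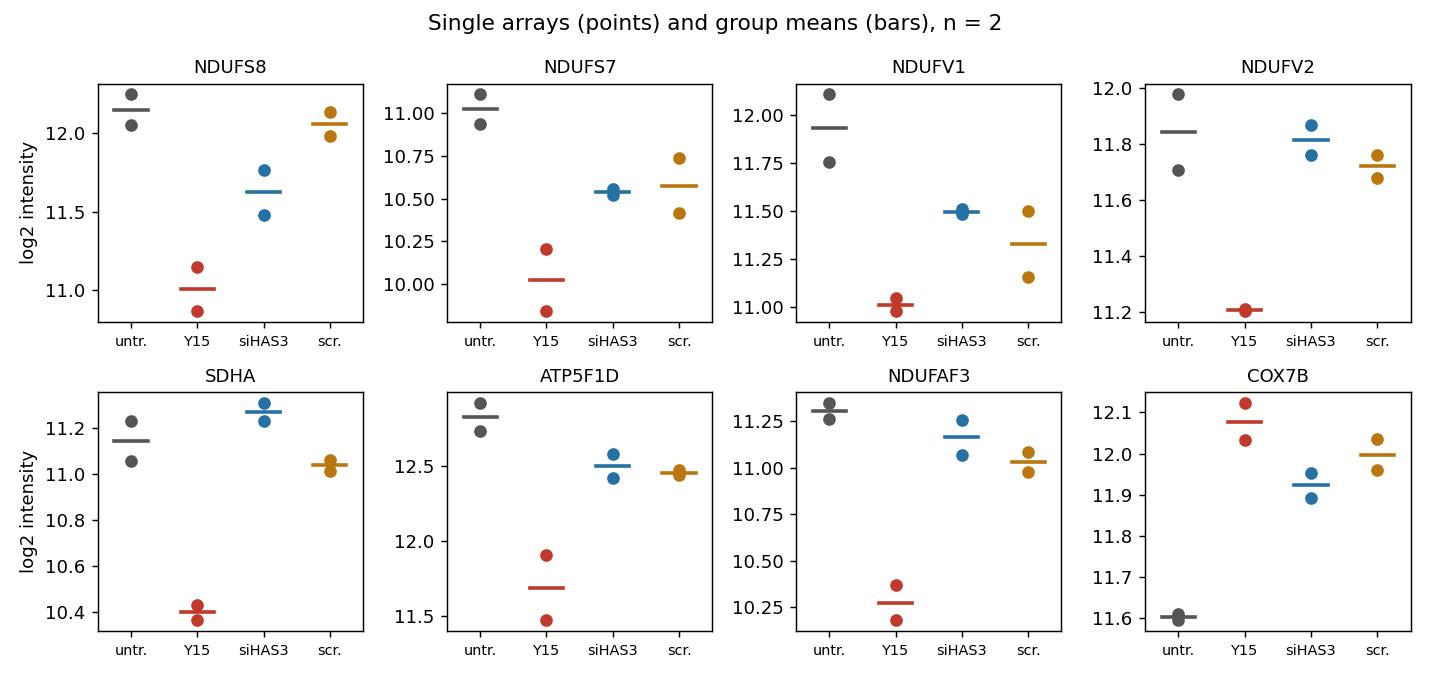
Log2 intensity of 8 members on each array (points) with group means (bars) for untreated (untr.), Y15, HAS3 siRNA (siHAS3) and scrambled (scr.) cells; the vertical axes have different ranges and do not start at 0. For all but COX7B the 2 Y15 arrays are the lowest of the 8, and for COX7B they lie above both untreated arrays.

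Complex II is succinate dehydrogenase, which also belongs to the tricarboxylic acid cycle. SDHA, its flavoprotein that oxidises succinate, read 11.23 and 11.06 untreated, 10.43 and 10.37 with Y15, 11.31 and 11.23 with HAS3 siRNA and 11.01 and 11.06 scrambled. The Y15 arrays lay well below the other 6. The difference with Y15 was -0.74 ± 0.13 (SE, limma adjusted p = 0.000901), a 1.67-fold lower level. SDHA has closely similar pseudogene copies that its probe may not tell apart. The membrane anchors were not called: SDHC gave -0.24 (interval -0.53 to 0.05, limma adjusted p = 0.164) and SDHD gave 0.36 (interval 0.02 to 0.69, limma adjusted p = 0.0831). SDHB was not analysed here.

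In complex III UQCRC1, a core protein of the matrix side, read 11.74 and 11.42 untreated and 11.18 and 10.92 with Y15. It fell by 0.53 ± 0.16 (SE, limma adjusted p = 0.0197), with an adjusted p of 0.155 without the first untreated array and 0.106 without the second Y15 array. Its partner UQCRC2 had the smallest difference, 0.03, with an interval of -0.30 to 0.35. None of the 5 small subunits passed, and their differences ran from -0.21 for UQCRH to 0.42 for UQCRB, which helps to bind ubiquinone.

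In complex IV COX7B, a small subunit, read 11.60 and 11.61 untreated, 12.12 and 12.03 with Y15, 11.89 and 11.95 with HAS3 siRNA and 12.04 and 11.96 scrambled. The untreated arrays were thus the lowest of the 8. With Y15 it rose by 0.47 ± 0.13 on the log2 scale (SE, limma adjusted p = 0.0111). COX6B1, which lies between the monomers of the complex IV dimer, read 11.90 and 11.92 against 12.21 and 12.45 and rose by 0.42 ± 0.15 (SE, limma adjusted p = 0.0439). Its untreated arrays were also the lowest of the 8, with 12.41 and 12.10 for HAS3 siRNA and 12.355 and 12.212 scrambled. COX5B, a zinc-binding subunit of the matrix side, read 12.57 and 12.70 against 12.23 and 12.16 and fell by 0.44 ± 0.15 (SE, limma adjusted p = 0.0304). The call of COX6B1 was lost without either untreated array or the second Y15 array (0.135, 0.111 and 0.206), as was that of COX5B (0.0555, 0.138 and 0.0952). COX4I1, which sits at the core of the nuclear-encoded part, had the smallest difference, -0.02, with an interval of -0.32 to 0.28.

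Complex IV has tissue-specific isoforms, and the arrays named COX4I2 of lung, COX6A2 and COX7A1 of heart and skeletal muscle, COX6B2 and COX7B2 of testis, and COX8C. COX4I2 was detected on 1 array and the other 5 on none, with raw intensities of 31.0 to 55.1 over these 6 probes. They were not tested. The 10 tested genes of complex IV were all common isoforms. The remaining untested members, NDUFA5 and NDUFB4 of complex I, were also detected on no array, which gives only an upper bound for what their probes measure.

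Complex V makes ATP in its F1 head, which is turned through a central stalk by the c ring in the membrane and held by a stator. ATP5F1D, the delta subunit of the central stalk, read 12.92 and 12.73 untreated, 11.90 and 11.47 with Y15, 12.42 and 12.58 with HAS3 siRNA and 12.44 and 12.48 scrambled. Its Y15 arrays were the lowest of the 8 by more than 0.5 log2 units. The difference was -1.14 ± 0.16 (SE, limma adjusted p = 0.0002), a 2.20-fold lower level, and a second probe gave -0.68. ATP5F1A, the alpha subunit of the head, read 13.04 and 12.99 against 12.57 and 12.57, a difference of -0.44 ± 0.15 (SE, limma adjusted p = 0.0317), and a second probe gave -0.47. Its call was lost under median centring (0.0977), under cyclic loess (0.0617) and on the arrays of the comparison alone (0.0529). ATP5F1C, the gamma subunit of the same stalk, went the other way: it read 11.14 and 11.16 against 11.54 and 11.52 and rose by 0.38 ± 0.13 (SE, limma adjusted p = 0.0369). Its untreated arrays were the lowest of the 8, and it read 11.70 and 11.60 with HAS3 siRNA and 11.82 and 11.65 scrambled. The catalytic beta subunit ATP5F1B gave -0.27 and was not called (limma adjusted p = 0.152).

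The c ring is encoded by ATP5MC1, ATP5MC2 and ATP5MC3, whose products share the same mature protein; ATP5MC3 was not analysed here. ATP5MC2 read 12.77 and 12.73 untreated and 12.17 and 12.14 with Y15, and it fell by 0.59 ± 0.14 (SE, limma adjusted p = 0.00593, and 0.0696 on the mean of its probes). ATP5MC1 read 10.97 and 10.81 against 10.40 and 10.62, a difference of -0.38 ± 0.14 (SE, limma adjusted p = 0.048). ATP5PF of the stator read 12.52 and 12.34 against 12.03 and 11.98 and fell by 0.43 ± 0.13 (SE, limma adjusted p = 0.0208), while the other 3 stator genes gave -0.21 to -0.12 and were not called. ATP5MJ, a small proteolipid of the membrane part, read 9.41 and 9.41 against 9.71 and 10.07 and rose by 0.48 ± 0.16 (SE, limma adjusted p = 0.0287). It too was lowest on the untreated arrays, with 9.81 and 9.73 for HAS3 siRNA and 9.89 and 9.59 scrambled. The smallest difference was that of ATP5MK, -0.04, with an interval of -0.43 to 0.35.

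Within complex V single arrays decided several calls. Without the first untreated array the adjusted p was 0.116 for ATP5F1A, 0.115 for ATP5F1C, 0.207 for ATP5MC1, 0.121 for ATP5PF and 0.0962 for ATP5MJ. Without the second untreated array ATP5F1A (0.0805), ATP5F1C (0.0897), ATP5MC1 (0.0641) and ATP5MJ (0.0901) lost their calls. Without the first Y15 array ATP5F1A (0.0685), ATP5F1C (0.0887) and ATP5MC1 (0.209) did, and without the second ATP5F1A (0.0723), ATP5F1C (0.0771), ATP5PF (0.0652) and ATP5MJ (0.192). ATP5F1D kept its call in each of these fits, with an adjusted p of at most 0.00364 over all alternatives.

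Of the 9 accessory genes 2 fell and 2 rose with Y15. NDUFAF3, which helps to assemble the Q module, read 11.35 and 11.26 untreated, 10.18 and 10.37 with Y15, 11.07 and 11.26 with HAS3 siRNA and 10.98 and 11.08 scrambled. Its Y15 arrays were below all others, and the difference was -1.03 ± 0.14 (SE, limma adjusted p = 0.000144), the smallest p of all members. NDUFAF4, which acts together with NDUFAF3, read 6.93 and 7.58 untreated against 7.76 and 8.13 and rose by 0.69 ± 0.22 (SE, limma adjusted p = 0.0236). NDUFAF5, which modifies NDUFS7, read 9.74 and 10.12 against 10.47 and 10.37 and rose by 0.49 ± 0.15 (SE, limma adjusted p = 0.02). The partners NDUFAF3 and NDUFAF4 therefore had opposite signs. Without the first untreated array NDUFAF4 (0.234) and NDUFAF5 (0.17) lost their calls, as did NDUFAF4 without the second Y15 array (0.125) and NDUFAF5 without the first (0.0661). ATP5IF1, which inhibits the ATP synthase when it runs backwards, fell by 0.48 ± 0.15 (SE, limma adjusted p = 0.0207, and 0.0981 without the first untreated and 0.13 without the second Y15 array).

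When an array of the Y15 comparison was left out, fewer of all genes were called. On the 4 arrays of the comparison alone 33.3% of all genes passed, beside 41.8% in the main fit. The count of members called also depended on the arrays fitted. It was 10 without the first untreated array (1 higher and 9 lower), 19 without the second, 24 and 16 without the first and second Y15 array, and 14 (2 higher and 12 lower) when the 4 arrays of the comparison were fitted alone. All 6 rises were lost under median centring, where 22 members were lower and none higher, COX5B lost its call (0.0656) and SDHC was called lower (-0.76, limma adjusted p = 0.0175). With the mean of probes ATP5MC2 (0.0696) and ATP5PF (0.193) were lost as well, and with no detection filter COX6B1 (0.0571) and NDUFAF4 (0.0801). NDUFS7, NDUFS8, NDUFV1, NDUFV2, SDHA, ATP5F1D and NDUFAF3 kept their calls under all 14 alternatives.

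Probes of 1 gene did not always move together. For 15 tested members 19 further probes were kept, and with Y15 14 of these had the sign of the probe used. The probes of opposite sign belonged to ATP5MC1, ATP5IF1, UQCR10, ATP5PF and ATP5ME. For ATP5MC1 the probe used differed by -0.38, which passed over genes but not over probes (limma adjusted p = 0.0532 over probes), and its second probe read 6.91 and 6.80 untreated and 7.51 and 7.89 with Y15, a rise of 0.85 (limma adjusted p = 0.00238 over probes). For ATP5IF1 the probe used gave -0.48 (limma adjusted p = 0.0236 over probes) and the second one 0.48 (limma adjusted p = 0.0386 over probes). For UQCR10, a small subunit of complex III, the probe used was not called, another rose by 0.73 (limma adjusted p = 0.00613 over probes) and one fell by 0.37 (0.0484). For ATP5PF, whose probe used fell by 0.43, a further probe gave -0.38 and another 0.14 (limma adjusted p = 0.0363 and 0.647 over probes). For ATP5ME the probe used gave -0.19 and the second one 0.24, and neither was called. Directions of ATP5MC1, ATP5IF1 and UQCR10 therefore hold for single probes only, and the fall of ATP5PF was not seen with all its probes.

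**Figure D4:**
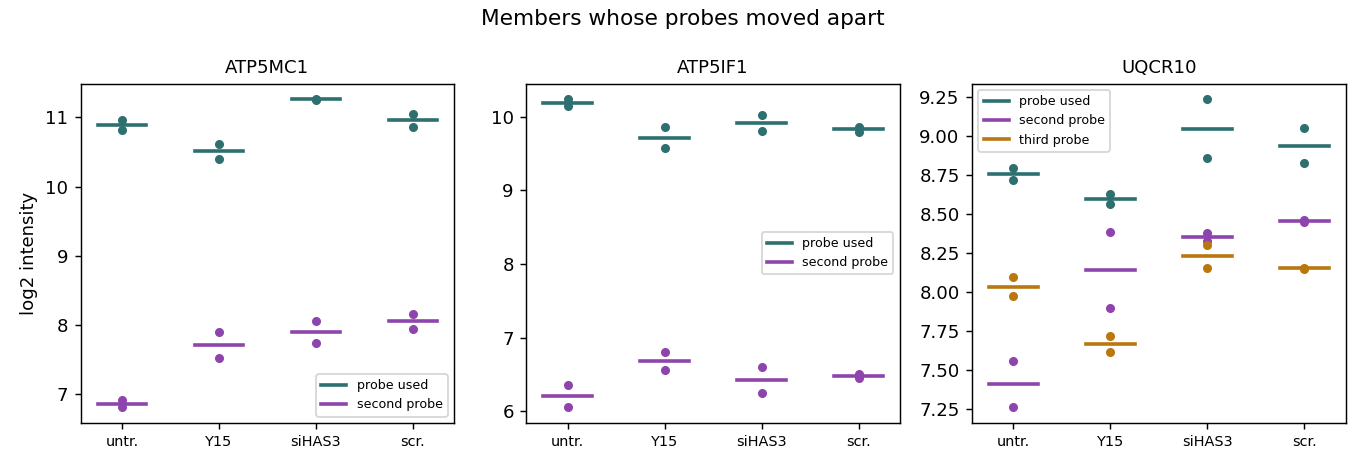
Log2 intensity of each kept probe of ATP5MC1, ATP5IF1 and UQCR10 on every array (points) with group means (bars) in the 4 groups; axes do not start at 0, and levels of different probes are not comparable. Between untreated and Y15 the probe used for ATP5MC1 differs by -0.38 and its second probe by 0.85, and the probes of ATP5IF1 differ by -0.48 and 0.48.

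HAS3 siRNA gave no called member against scrambled cells. None of the 75 members passed in limma, beside 8.22% of all genes (3.47% higher and 4.74% lower), and at an unadjusted p under 0.05 there were 9 members (12%, 5 higher and 4 lower) beside 21.6% of all genes. The smallest adjusted p was 0.111. The median difference of the members was 0.02 and that of all genes 0.01. Both siRNA arrays lay above both scrambled arrays for 22 members and below them for 19, where 30.0% and 27.6% of all genes did so. The largest difference was 0.45 log2 units in size, and the widest 95% interval reached 0.86, so that changes up to that size were not shown to be absent.

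The members with the lowest p in this comparison were ATP5ME, a small subunit in the membrane part of the ATP synthase, and NDUFS8. ATP5ME read 12.60 and 12.48 with HAS3 siRNA and 12.85 and 12.99 scrambled, a difference of -0.38 ± 0.13 (SE, limma adjusted p = 0.111). NDUFS8 gave -0.44 ± 0.16 (SE, limma adjusted p = 0.128). SDHA, SDHC and SDHD gave 0.23, -0.18 and -0.20, and the c-ring genes ATP5MC1 and ATP5MC2 gave 0.31 and 0.24, none of them called. All 9 accessory genes had differences above 0, from 0.04 for ATP5F1EP2 to 0.33 for NDUFAF2, a complex I assembly factor, and none was called. ATP5F1EP2 may share its probe's signal with the gene it was copied from. The smallest differences were those of NDUFB5 (0.01), SDHC (-0.18), UQCRC1 (-0.004), COX5A (0.03) and ATP5MK (-0.003) in complexes I to V.

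Whether the effects of the treatments differ was tested directly, as the Y15 effect minus the HAS3 siRNA effect. Of the 75 members 14 differed, 13 with a lower and 1 with a higher value for Y15. Of all genes 30.8% did so, 13.8% higher and 17.0% lower, so that the members' 18.7% is below the background and their 17.3% lower is close to it. The median was -0.15 for the members and -0.04 for all genes. The NADH module and the Q module of complex I, grouped as above, each held 3 of these members. Both tested c-ring genes were among them, ATP5MC1 by the probe used only.

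SDHA had a Y15 effect of -0.74 and a HAS3 siRNA effect of 0.23, a difference of -0.97 ± 0.19 (SE, limma adjusted p = 0.00242). ATP5F1D had effects of -1.14 and 0.04, a difference of -1.18 ± 0.23 (SE, limma adjusted p = 0.00261). NDUFAF3 had -1.03 and 0.13, a difference of -1.16 ± 0.20 (SE, limma adjusted p = 0.00117). NDUFA7 and NDUFV3 had effects of opposite sign, -0.70 against 0.45 and -0.53 against 0.27, of which those of HAS3 siRNA did not pass (limma adjusted p = 0.182 and 0.278), with differences of -1.14 (limma adjusted p = 0.00668) and -0.80 (0.00883). For NDUFV1 and NDUFS7 the differences were -1.08 (limma adjusted p = 0.0042) and -0.96 (0.00905). These 7 kept their calls under all alternatives.

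The other 7 were lost in at least 1 fit without an array. NDUFS8 had effects of the same sign, -1.15 and -0.44, and a difference of -0.71 (limma adjusted p = 0.0319). ATP5MC2 and ATP5MC1 gave -0.83 (0.00944) and -0.69 (0.0226). The second probe of ATP5MC1 gave 0.997 (limma adjusted p = 0.0104 over probes), so the lower value of this gene holds for the probe used only. NDUFV2 and NDUFA8 both gave -0.73 (0.0159 and 0.0147). COX7C, a small subunit of complex IV, was called in neither single comparison, with effects of -0.26 and 0.37. Its difference was -0.63 (0.0287), and the call was lost under median centring (0.299) and cyclic loess (0.197). COX7B was the single member called with a higher value for Y15, 0.55 (0.0388), and was lost under median centring (0.676). NDUFS8 was lost with no detection filter (0.053), and with the mean of probes ATP5MC1 had a difference of 0.155. The smallest differences in complexes I to V were -0.002 for NDUFB3, -0.06 for SDHC, -0.13 for UQCRH, 0.04 for COX6A1 and -0.003 for ATP5PD.

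Single arrays also decided these 7 calls. Without the first untreated array ATP5MC1 (adjusted p = 0.0725 in limma), COX7B (0.0801), COX7C (0.0917), NDUFA8 (0.0523) and NDUFV2 (0.059) were lost, and without the second COX7B (0.0687) and NDUFS8 (0.0976). Without the first Y15 array the losses were ATP5MC1 (0.0537), COX7B (0.073), COX7C (0.056) and NDUFS8 (0.0762). Leaving out the first siRNA array ended ATP5MC1 (0.0668), COX7B (0.109), COX7C (0.0992) and NDUFA8 (0.0626), and the second one ATP5MC1 (0.0637), COX7B (0.0778), COX7C (0.0536), NDUFS8 (0.129) and NDUFV2 (0.0617). For the first scrambled array these were ATP5MC1 (0.1), ATP5MC2 (0.0543), COX7B (0.133), COX7C (0.11) and NDUFS8 (0.117), and for the second COX7B (0.0842), COX7C (0.0581), NDUFA8 (0.0517), NDUFS8 (0.0556) and NDUFV2 (0.0628).

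**Figure D5:**
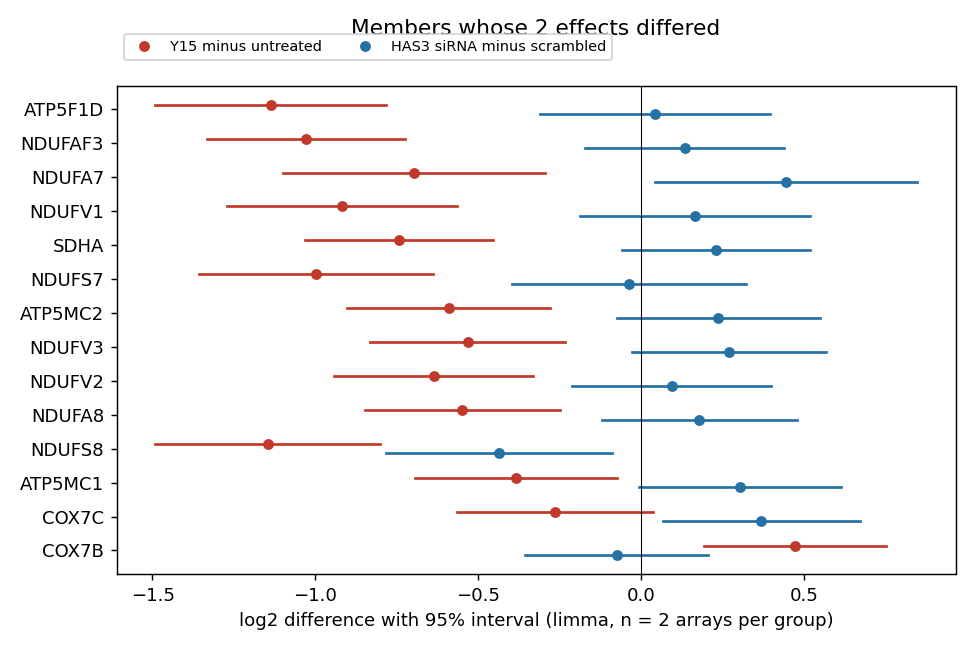
Log2 differences with 95% intervals from the limma fit for the 14 members whose effects differed, in order of the difference; red is Y15 minus untreated and blue HAS3 siRNA minus scrambled, each of 2 against 2 arrays. For 12 of the 13 members with a lower value for Y15 the blue point lies at -0.04 or higher; for NDUFS8 it lies at -0.44.

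The control groups differed too. Scrambled cells, which were transfected, were set against untreated cells, which were not, and this comparison shares arrays with each of the others. Of the members 6 were higher and 2 lower, 10.7% in all, beside 19.5% of all genes (8.84% higher and 10.7% lower). The higher ones were the small subunits NDUFB3 (0.59) and NDUFB6 (0.56) of complex I and UQCRB (0.54) and UQCRQ (0.42) of complex III, with SDHC (0.53) and ATP5F1C (0.58). SDHC read 8.01 and 7.89 untreated and 8.52 and 8.43 scrambled (limma adjusted p = 0.0168), and ATP5F1C read 11.14 and 11.16 against 11.82 and 11.65 (limma adjusted p = 0.01). NDUFV1 and NDUFV3 were lower, at -0.60 (limma adjusted p = 0.0228) and -0.48 (0.0293), and both also fell with Y15 against the same untreated arrays. The first untreated array read highest of the 8 for both genes. None of these 8 calls held under all alternatives. When any array of the comparison was left out, fewer of all genes passed, not only fewer members. Without 1 array at a time 0 to 3 members were called: 1 and 3 without the first and second untreated array, and 0 and 2 without the first and second scrambled array. The smallest differences in complexes I to V were 0.003 for NDUFA3, -0.11 for SDHA, 0.01 for UQCRH, 0.05 for COX4I1 and -0.02 for ATP5F1B.

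Genes around the chain were taken from lists drawn up from general knowledge. They have the same background with Y15: 41.8% of all genes passed, 18.8% higher and 23.0% lower, with a median of -0.03. Of 38 further assembly and maturation factors 12 fell and 3 rose (median -0.18). COA5, a factor for complex IV, read 9.08 and 9.34 untreated and 7.97 and 7.84 with Y15 and fell by 1.303 (limma adjusted p = 2.55e-05). SURF1 and COX20, which also serve complex IV, fell by 0.85 (limma adjusted p = 0.000554) and 0.77 (0.00119). In the cytochrome c system 2 of 6 fell, cytochrome c itself (CYCS, -0.86, limma adjusted p = 0.000413) and cytochrome c1 of complex III (CYC1, -0.64, 0.00302), and the haem lyase HCCS rose by 0.46 (0.0162).

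Of 15 regulators of mitochondrial biogenesis 6 rose and 1 fell, with a median of 0.32. GABPB1, a subunit of the ETS factor GABP, read 9.25 and 9.46 untreated and 10.73 and 10.44 with Y15 and rose by 1.23 (limma adjusted p = 5.23e-05). SIRT1, a deacetylase, rose by 1.38 (limma adjusted p = 5.87e-05) and YY1 by 0.76 (0.00164), and both were also higher in scrambled than in untreated cells, by 0.64 and 0.74. In the list of the tricarboxylic acid cycle, which also holds enzymes that feed pyruvate into it, 3 of 17 fell and none rose. These were SUCLG2 (-0.86), a subunit of succinyl-CoA ligase in the cycle, and the pyruvate enzymes PC (-0.51, carboxylation) and PDHB (-0.56, dehydrogenation). In glycolysis 4 of 20 fell, led by PFKL (-1.39, limma adjusted p = 6.19e-05), and 2 rose, ALDOC (0.72) and ENO2 (0.41). Among mitochondrial import genes 7 of 22 rose and 3 fell, TIMM17B (-0.98, limma adjusted p = 0.000133) and DNAJC19 (-0.73) among those that fell and GRPEL1 (0.60) among those that rose.

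With HAS3 siRNA 8.22% of all genes passed, and 21.6% had an unadjusted p under 0.05. Of the 38 assembly factors 2 passed, SCO2 higher by 0.65 (limma adjusted p = 0.0219) and COX19 lower by 0.61 (0.021), both of which serve copper delivery to complex IV. CYCS was lower by 0.59 on the log2 scale (limma adjusted p = 0.0197), reading 6.71 and 6.90 against 7.34 and 7.44. In the list of the tricarboxylic acid cycle and its pyruvate enzymes IDH3G was higher (0.99, limma adjusted p = 0.00297). The pyruvate enzyme PC and SUCLA2 of the cycle were lower (-0.81, 0.00273, and -0.61, 0.0238), and in glycolysis ALDOC was higher (0.77, 0.024). Mean levels in untreated, siRNA and scrambled cells were 6.725, 6.762 and 5.992 for ALDOC and 7.507, 7.335 and 8.14 for PC. For SCO2, SUCLA2, PC and ALDOC the scrambled mean lay farther from the untreated mean than the siRNA mean did. For COX19, CYCS and IDH3G the siRNA mean lay farther. None of the 15 regulators of biogenesis and none of the 22 import genes passed in limma, where 3 and 6 of them had an unadjusted p under 0.05, to be read beside the 21.6% of all genes.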

How the data were processed

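Total RNA of SW620 cells, 250 to 500 ng, was labelled as biotin cRNA and hybridised to bead arrays, per the labels' protocols, whose extraction text speaks of frozen tissue. The authors deposited linear probe intensity, with detection p-values in the next column per the file headers. GenomeStudio, version not given, is named per the submitters' processing notes. The deposited series matrix holds log2 values that equal the log2 intensities after quantile normalization alone, to within 5e-09. Here background was corrected by nec of limma 3.58.1 in R 4.3.3 (offset 16), followed by log2 and quantile normalization. Probe symbols came from the platform annotation, updated to RefSeq names: 21834 probes had 1 symbol, 0 several, and 2692 were unnamed. The probe of highest mean level stood for each gene.

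One limma model with 4 group means used all 8 arrays (4 residual and 11.8 total degrees of freedom), two-sided, adjusted over 10856 genes for each of 4 comparisons. Its code was run on simulated data drawn from the fitted model. Such data meet the model's assumptions by construction, so they cannot show that calls on these arrays hold. The members and lists were chosen with earlier results of these data known. Genes named were, per comparison and complex, up to 6 called members of smallest p and the member of smallest absolute difference, SDHA to SDHD, complex IV tissue isoforms, c-ring genes, up to 3 called accessory members, members with probes called in opposite directions, and up to 3 called genes of each further list. Alternatives were other background corrections, normalizations, detection filters and probe rules, the series matrix values, arrays of a comparison alone, a replicate block and leaving out each array. The genes formerly named NDUFA4 and NDUFA4L2 now carry COXFA symbols and fall outside the rule.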

Additional observations from a re-analysis of the deposited data

Results flagged for a closer look

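For 14 members the effect of Y15 and the effect of HAS3 siRNA differed in the test of the difference itself (limma, adjusted p under 0.05 over 10856 genes; 30.8% of all genes passed). The differences, as the Y15 effect minus the HAS3 siRNA effect on the log2 scale, were -1.18 for ATP5F1D, -1.16 for NDUFAF3, -1.14 for NDUFA7, -1.08 for NDUFV1, -0.975 for SDHA, -0.962 for NDUFS7, -0.828 for ATP5MC2, -0.803 for NDUFV3, -0.73 for NDUFV2, -0.728 for NDUFA8, -0.71 for NDUFS8, -0.688 for ATP5MC1, -0.634 for COX7C and 0.549 for COX7B. The second probe of ATP5MC1 gave 0.997, so the direction of this gene holds for the probe used only. The groups are too small for a single array to be tested as an outlier. The second Y15 array had the lowest mean intensity of the 8, 234.1. Without it the number of differing members was 14. The part of array intensity in these differences was not tested further.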

How the results depend on the processing

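With 2 arrays per group their number limits the precision; signal was above background on all 8 arrays for all tested members except NDUFS6. With Y15 (25 members called, median -0.161) the median was -0.152 with no background correction and with the series matrix values, -0.148 with offset 50, -0.387 with median centring, -0.13 with cyclic loess, -0.0943 with no detection filter, -0.179 with detection p under 0.01 on all 8 arrays and -0.107 with the mean of probes, and 14 members were called on the arrays of the comparison alone. For HAS3 siRNA the median was 0.12 with median centring, 0.00301 with cyclic loess and 0.0279 with the stricter detection filter, and 1 member was called with offset 50. The median of the difference was -0.452 with median centring, -0.101 with cyclic loess, -0.132 with no detection filter and -0.138 with the mean of probes. For scrambled minus untreated the median was -0.0403 with median centring and 0.0157 with cyclic loess, and 14 members were called with no background correction and with the series matrix values but 1 with median centring. Leaving out 1 array at a time gave 10 to 24 calls and medians of -0.2 to -0.113 with Y15, 0 to 0 calls and -0.0108 to 0.0247 with HAS3 siRNA, 9 to 17 and -0.178 to -0.119 for the difference, and 0 to 3 and 0.0144 to 0.0937 between the controls; where a group kept 1 array, it is assumed to vary like the others. With the mean of probes ATP5IF1 (0.000223) and ATP5MC1 (0.233, and 0.155 for the difference) changed sign, since their probes moved apart. Median centring moved the median of all genes with Y15 from -0.0299 to -0.313, and the share of called genes that were higher from 45% to 12.7%; the members then lay 0.0745 below all genes (-0.0745), beside -0.131 in the main setting, and 0.00736 above them in the difference. Apart from the probe averages, the causes were not tested. With the replicate number as a block 28, 0, 15 and 10 members were called with Y15, with HAS3 siRNA, for the difference and between the controls, but the labels do not say that a number pairs arrays. Same-numbered arrays had correlations of deviations of 0.274 for untreated and Y15, 0.218 and 0.131 for each of these with HAS3 siRNA, and -0.0715 to 0.0554 with scrambled, and 2 numbers per group leave the pairing unsettled. The fit of single comparisons gives no other value for the difference, which uses all 8 arrays.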
